A study of Mus musculus with 9 samples.

Results

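The circular RNAs described here are the exonic circRNAs of hotspot host genes, meaning genes from which many different circles were listed. Members were the circRNAs of the type exon with a genomic span of at least 1000 and under 50000 bases whose single annotated host had at least 10 exon-type circRNAs at any span. The rule gave 371 members of 6614 circRNAs, from 36 of 2735 hosts with exonic circRNAs. The median host had 1 exonic circRNA, 1438 hosts had only 1, 15 hosts had 9 and 11 of the 36 had exactly 10. The 36 hosts held 465 exonic circRNAs, of which 28 were shorter than the members and 66 were longer. The shortest members spanned 1012 bases (Fkbp5), 1065 bases (Vps13b) and 1090 bases (Crebrf), and the nearest shorter circles spanned 946 bases (Chd2), 924 bases (Man2a1) and 832 bases (Thsd7a). Members near the upper limit spanned 49757 bases (Vps13b) and 48775 bases (Zfp644), and longer ones near the limit spanned 50170 bases (Zfp827) and 50720 bases (Man2a1).

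A circRNA forms when a splice donor is joined to an acceptor that lies upstream of it in the same transcript, a reaction called back-splicing, and the product is a closed loop of exons that the exonucleases acting on linear RNA ends cannot attack. Its reads are recognised only by the back-splice junction, so a read inside the loop cannot be told from linear RNA of the same gene. One gene can give several circles that share a donor or an acceptor, and such alternative back-splicing is called here isoform variety.

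Total RNA came from mouse bone marrow mesenchymal stem cells of a commercial stock, kept for 7 days in 3 conditions with 3 libraries each. C2S was the osteogenic medium below plus dicalcium silicate, a bioactive ceramic, for which the labels list several doses without tying one to these libraries. OM was osteogenic medium, with dexamethasone, a synthetic glucocorticoid, at 100 nM, ascorbic acid at 0.2 mM and beta-glycerophosphate at 10 mM. PM was proliferation medium with serum and without these supplements, and all 3 groups came from the same kind of expanded cell. Whether the libraries of a group stem from separate cultures is not stated. Each p-value below is set by the spread among these libraries, pooled in part over features, and that spread may be technical.

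Each library held 13691 to 20769 circRNA reads, with 16936 to 17934 in C2S, 19123 to 20769 in OM and 13691 to 16123 in PM, so PM was the shallowest group. A listed circRNA had at least 2 reads and a median of 3. Circular levels are RPM, circRNA reads scaled to the circRNA total of the library, and linear levels are FPKM from 29581474 to 38763237 reads. Of 15 stromal marker genes summed, C2S gave 1863 to 1959 FPKM, OM 1769 to 1900 FPKM and PM 2504 to 2564 FPKM. However, Thy1 (0.535 to 1.21 FPKM over all libraries), Eng (0.406 to 1.39 FPKM), Nt5e (0.482 to 2.92 FPKM) and Lepr (0.226 to 0.422 FPKM) were low. The gene with the largest excess in PM was Col1a2, a type I collagen gene (means of 311 FPKM in C2S, 347 FPKM in OM and 977 FPKM in PM), while Ly6a was higher in C2S (929 FPKM) and OM (862 FPKM) than in PM (624 FPKM). Osteoblast markers (6 genes) summed to 178 to 232 FPKM in C2S, 83.6 to 115 FPKM in OM and 23.3 to 31.7 FPKM in PM, of which Spp1, the osteopontin gene, gave a mean of 179 FPKM in C2S, 82.9 FPKM in OM and 16.7 FPKM in PM. The osteoblast genes Ibsp, Sp7 and Bglap were at most 0.135 FPKM in every library. The 8 blood and macrophage markers in the table summed to 2.21 to 2.85 FPKM in C2S, 2.64 to 2.99 FPKM in OM and 7.39 to 8.69 FPKM in PM. The highest were the macrophage genes Lyz2 (means of 0.549 FPKM in C2S, 0.410 FPKM in OM and 4.04 FPKM in PM) and Cd68 (1.73, 2.03 and 3.19 FPKM in that order). Ptprc, which marks blood cells, was at most 0.009 FPKM. The part of these markers in any result was not tested. In bulk RNA, fewer cells of a type and less RNA per cell cannot be told apart.

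The back-splice junctions of the circles that carry the comparisons below are shown first. Each line gives the last 30 bases of the donor exon in lower case and the first 30 bases of the acceptor exon in capitals, 5′ to 3′ on the strand of the gene, so the change of case marks the joint found only in the circle. The bases are from GENCODE M21 transcripts on mm10. The first 3 circles were higher in OM and C2S than in PM, and circ_22 is the leading Crebrf circle.
Grik2 circ_689, chr10:49523682-49535499, minus strand: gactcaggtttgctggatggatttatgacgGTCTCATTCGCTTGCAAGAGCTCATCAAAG
Grik2 circ_2267, chr10:49404337-49422672, minus strand: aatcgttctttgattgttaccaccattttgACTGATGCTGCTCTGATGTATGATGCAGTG
Dtnb circ_2669, chr12:3617606-3648389, plus strand: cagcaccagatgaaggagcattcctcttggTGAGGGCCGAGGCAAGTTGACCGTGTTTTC
Crebrf circ_22, chr17:26739543-26743131, plus strand: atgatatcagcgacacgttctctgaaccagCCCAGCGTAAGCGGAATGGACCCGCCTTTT

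A further pair of Grik2 circles shows how isoforms of a hotspot host can share an end. They use the same donor and differ in the acceptor, which is exon 13 in circ_820 and exon 12 in circ_2131.
Grik2 circ_820, chr10:49240579-49244443, minus strand: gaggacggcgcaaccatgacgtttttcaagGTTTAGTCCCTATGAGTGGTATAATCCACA
Grik2 circ_2131, chr10:49240579-49272963, minus strand: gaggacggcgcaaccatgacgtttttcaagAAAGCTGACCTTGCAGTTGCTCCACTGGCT

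For Fkbp5 circ_1228, of exons 5 to 8 of 14, the acceptor side is not coding, so the donor side alone is given.
Fkbp5 circ_1228, chr17:28428352-28441053, minus strand, donor side: caaacccaaacgaaggagcaacggtaaaag

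Sharing of ends was the rule among the hotspot isoforms. Of the 371 members, 332 shared a donor or an acceptor position with another exonic circRNA of the same host, 159 shared both their ends with others and 39 shared neither. A host used a median of 6 acceptors and 7 donors. In the tyrosine kinase gene Fer, 8 of 21 exonic circRNAs used 1 acceptor, as did 7 of 10 in Strn3, a striatin scaffold gene. In Arhgap10, a GTPase-activating protein gene, 7 of 27 used 1 donor. Starts lay on an annotated exon boundary in 360 members and ends in 369.

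Members differed from the 4762 exonic circRNAs of the same spans from 2433 other hosts in several properties that the rule did not use directly. Their median span was 15243 bases, against 8974.5 bases, while both sets had a median of 4 exons, and the median spliced length was 582 bases, against 535 bases. Of the 345 members that fitted 1 annotated transcript, 18.6% began at exon 2, against 35.6% of the others. Members were also listed more often: 65 (17.5%) had a value in all 9 libraries, against 8.48% of the others, and 116 (31.3%) had a value in only 1 library, against 40.2%. These are descriptions without a test. The rule asks for many different circles per host, so the differences are not independent of it. Hotspot hosts also held a median of 302 circRNA reads, against 25 for the other tested hosts. The part of reads in these differences was not tested. Across the 36 hosts, the number of members had a Spearman correlation of 0.10 with the circRNA reads of the host. The number of exonic circRNAs at any span had a Spearman correlation of 0.17 with the FPKM of the host and 0.06 with its exon number. These correlations are descriptions over 36 genes that share libraries. The rule kept only hosts with at least 10 exonic circRNAs, which narrows the range of the count. The low values therefore do not describe hosts in general.

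**Figure D1:**
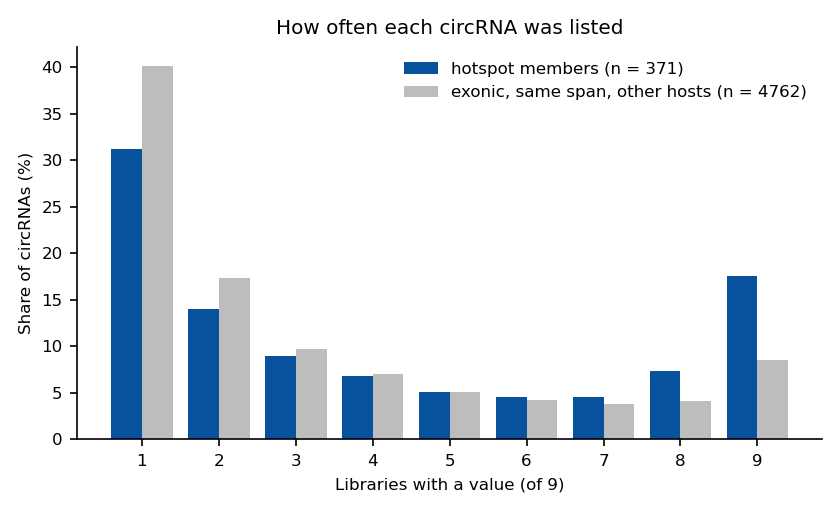
Share of circRNAs (y axis, %) by the number of libraries with a value (x axis), for the 371 members and the 4762 exonic circRNAs of the same spans from other hosts. Members stand higher at 9 libraries (17.5%, against 8.48%) and lower at 1 library (31.3%, against 40.2%).

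The number of isoforms per host ranged from 5 to 19 members with a median of 10, and most hosts had a few strong circles and many weak ones. The dominant member, the one with the highest mean level over all libraries, held a median of 34.6% of the summed exonic circRNA of its host, with a range of 14.3% to 84.8%. In 16 hosts it ranked first among the members in all 9 libraries. The inverse of the summed squared shares, which counts equally used isoforms, had a median of 3.94 per host and ran from 1.38 (Tulp4) to 11.9 (Fer).

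In 11 hosts 1 member held over 50% of the exonic circRNA. The highest share was in Tulp4, a tubby-like gene with 9 members, where circ_2040 held 84.8%. The helicase gene Ascc3 had 6 members, with circ_1598 at 80.3%. The Hsp90 co-chaperone gene Fkbp5 had 14, with circ_1228 at 74.4%, and Strn3 had 10, with circ_1925 at 70.0%. The chromatin cofactor gene Trim24 had 12 members (circ_993, 62.3%), the latent TGF-beta binding protein gene Ltbp1 10 (circ_2634, 61.3%) and Nbea, the gene of the neuronal scaffold neurobeachin, 11 (circ_1012, 61.3%). The zinc-finger gene Zfp827 had 7 members (circ_1034, 57.7%), and Dtnb, which encodes beta-dystrobrevin of the dystrophin complex, had 10 (circ_2669, 56.8%). The cell polarity gene Pard3 had 7 (circ_328, 55.2%) and the chromatin remodeller gene Chd2 had 14 (circ_977, 52.8%). Hosts with a single leading circle therefore included some with 14 members and some with 6.

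In 9 hosts the second member held at least 20%, so 2 circles led. Among them, Crebrf, which encodes a regulator of the CREB3 transcription factor, had 13 members, with circ_22 at 34.5% and circ_177 at 30.2%. Both circles end at the same donor, of exon 4, and circ_177 starts 1 exon earlier. The endosomal Rab effector gene Rabep1 had 12 members (40.7% and 30.6% for its first 2), the histone methyltransferase gene Ash1l 7 (39.4% and 29.1%) and Crim1, a transmembrane gene whose product binds bone morphogenetic proteins, 8 (38.0% and 25.7%). Birc6, of the inhibitor of apoptosis family, had 10 members (37.3% and 26.6%), the zinc-finger gene Zfp644 10 (30.6% and 23.8%) and the attractin-like gene Atrnl1 10 (29.1% and 26.4%). The myosin phosphatase subunit gene Ppp1r12a had 10 (27.6% each). In Ppp1r12a these shares rest on 60 reads over the 9 libraries.

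In the other hosts no member passed 50% and the second member stayed under 20%. Arhgap10 had the most members, 19, with circ_2840 at 25.5%. The histone methyltransferase gene Ehmt1 had 17, with circ_1269 at 20.3%. Pik3c2a, a lipid kinase gene, had 15 (circ_2314, 24.9%) and Fer 15 (circ_1758, 15.4%). Ckap5, which encodes a microtubule polymerase, had 11 (circ_355, 24.8%), and the lipid transfer gene Vps13b had 10 (circ_2445, 21.2%). The utrophin gene Utrn had 11 members (circ_1695, 45.3%), the receptor phosphatase gene Ptprk 8 (circ_364, 46.7%) and the active-zone scaffold gene Erc1 5 (circ_577, 25.6%).

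In 5 hosts the strongest exonic circle lay outside the span limits and is not a member. These were Zeb1, a transcription factor of epithelial to mesenchymal transition (58.8% in a circle of 72040 bases), and Man2a1, the Golgi alpha-mannosidase gene (45.4%, 924 bases). The others were Thsd7a, a membrane protein gene with thrombospondin repeats (42.0%, 832 bases), the corepressor gene Rere (30.1%, 469 bases) and Grik2, a kainate-type glutamate receptor subunit gene (28.8%, 54621 bases). Their leading members held 22.5% (Zeb1), 14.3% (Man2a1), 29.6% (Thsd7a), 23.0% (Rere) and 22.7% (Grik2), with 5, 8, 7, 8 and 11 members in that order of hosts.

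**Figure D2:**
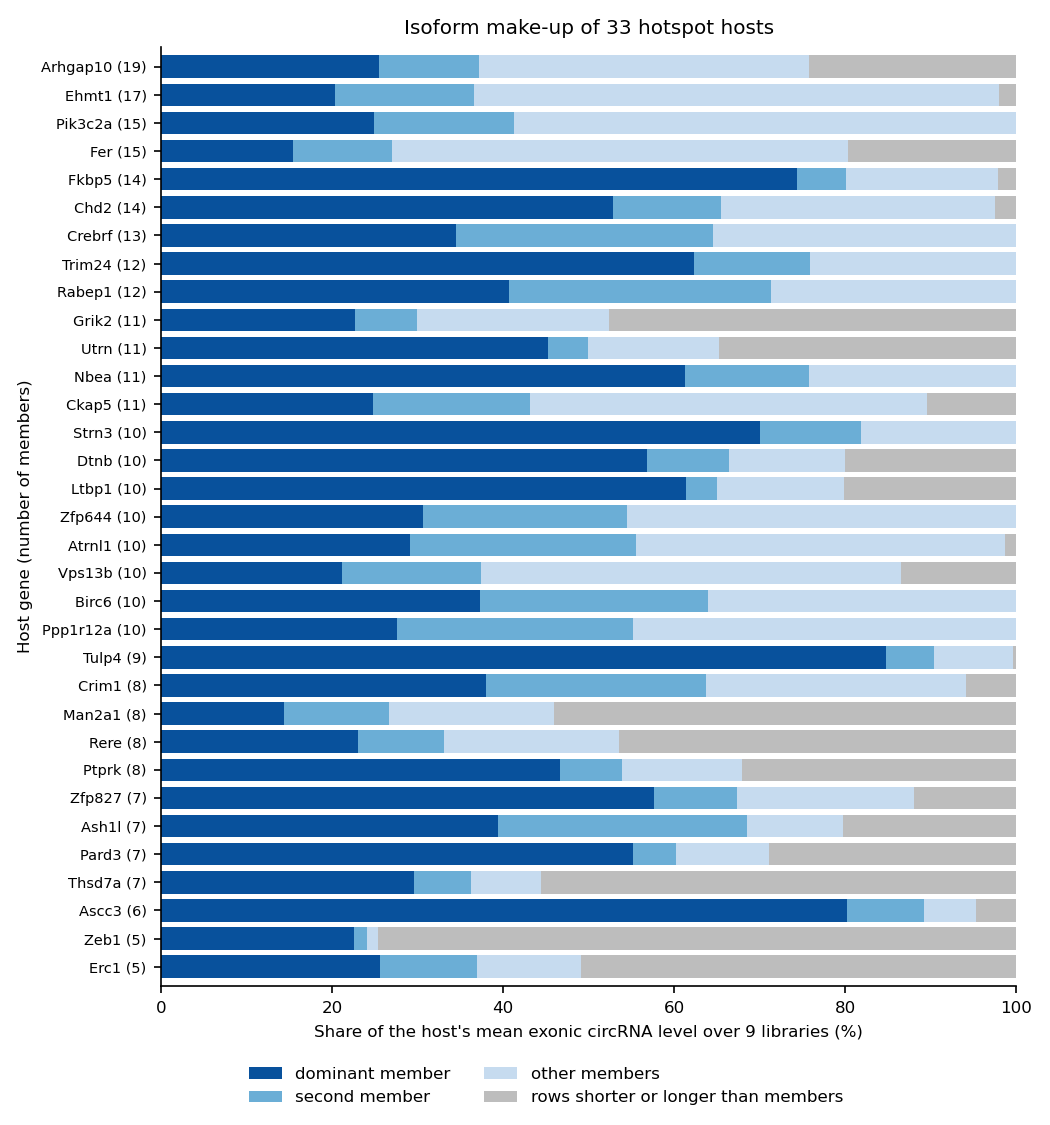
Share of each host's mean exonic circRNA level over 9 libraries (x axis, %) held by the dominant member, the second member, the other members and the circles outside the span limits, for 33 hosts (y axis, with the number of members). Tulp4 (84.8%) and Ascc3 (80.3%) are led by 1 circle, while no circle of Fer passes 15.4%.

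The leading circle was the same across conditions in most hosts. The same member had the highest group mean in C2S, OM and PM in 26 of 36 hosts, and in C2S and OM in 28. Tulp4 circ_2040 had 8713, 9646 and 9447 RPM in C2S, 8570, 8994 and 8305 RPM in OM, and 10445, 12062 and 10606 RPM in PM. Its share of the host was 84.6% ± 3.29 in C2S, 84.5% ± 1.84 in OM and 85.1% ± 0.755 in PM (SD, n = 3). The level was highest in all 3 PM libraries, while the share overlapped between the groups. Trim24 circ_993 held 63.0% ± 4.35 in C2S, 65.0% ± 5.00 in OM and 58.8% ± 4.71 in PM (SD, n = 3), again with overlap.

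In some hosts the leader differed between groups. In Crebrf circ_177 led in C2S (2465 ± 204 RPM), and circ_22 led in OM (2613 ± 618 RPM) and PM (2287 ± 222 RPM; SD, n = 3 each). The leader also differed in Atrnl1, Ckap5, Ehmt1, Fer, Man2a1, Ppp1r12a and Vps13b. Fkbp5 is counted as differing only because it had no listed circle in PM, while circ_1228 led in both C2S and OM. In limma's test of isoform usage, which asks whether an isoform moved differently from the rest of its host, 1 of 203 tested members was called in OM against PM and 1 in C2S against PM, with a background of 0.308% and 0.0615% of 1625 isoforms. Both calls were Fkbp5 circ_1228, whose share in PM is undefined because no Fkbp5 circle was listed there. With every circle of the host at 0 in PM, the strongest circle gets the largest fitted change through the added 111.7 RPM. Both calls therefore say nothing about a change of isoform usage. In C2S against OM limma called 0 of 203 for usage (background 0% of 1625).

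Single circles were compared next, with 203 of the 371 members listed in the 3 or more libraries needed for the test. In OM against PM limma with Benjamini-Hochberg adjustment called 4 of 203 members at 0.05, all higher in OM, beside 1.55% of all 2898 circRNAs tested (0.725% higher and 0.828% lower). In C2S against PM it called 5 members, all higher in C2S, beside 1.66% of all tested (0.932% higher). In C2S against OM it called 0 members (0% of all 2898), with 9 members at an unadjusted p under 0.05 and a smallest adjusted p of 0.504. OM and C2S were set against the same PM libraries, so these counts are not independent. A member that passed only through the groups where it is high had to differ, so the 203 do not stand for all 371. The median log2 fold change of the 203 was 0.07 in OM against PM (0.09 over all 2898), −0.02 in C2S against OM (−0.04) and 0.01 in C2S against PM (0.01), and with circles at 0 in a group placed at their bound it was 0 in each.

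Fkbp5, a gene that glucocorticoids induce and whose product dampens the glucocorticoid receptor, gave the largest change among the members. Its circ_1228 had 49, 37 and 30 reads in C2S (2190 ± 495 RPM), 50, 41 and 34 reads in OM (2095 ± 340 RPM) and none in the 3 PM libraries (SD, n = 3). Every C2S and OM library was thus high and every PM library was without a listed read. Against the limit of 3 reads per library in PM, circ_1228 was at least 10.8-fold higher in C2S and at least 10.3-fold higher in OM. On the log2(RPM + 111.7) scale the fitted change was 4.29 ± 0.25 (SE) in OM against PM (limma adjusted p = 1.25e-07) and 4.34 ± 0.25 in C2S against PM (limma adjusted p = 1.07e-07). As circ_1228 entered the test only through the groups where it was high, these p-values are not independent of the filter. The fitted change depends on the added 111.7 RPM and ran from 3.36 to 5.25 in OM against PM over the settings run. The second circle, circ_252, had 2 to 3 reads in C2S, 2 to 7 reads in OM and none in PM, and did not pass. None of the 14 Fkbp5 members was listed in PM, and 6 of them were seen in 1 library only.

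Grik2 circ_689, of exons 5 to 7 of 17, had 27, 24 and 19 reads in C2S (1323 ± 194 RPM), 33, 29 and 30 in OM (1545 ± 38.8 RPM) and 0, 5 and 3 in PM (176 ± 172 RPM; SD, n = 3). All C2S and OM libraries lay above all PM libraries. Its log2 fold change was 2.74 ± 0.39 (SE) in OM against PM (limma adjusted p = 0.0019) and 2.53 ± 0.39 in C2S against PM (limma adjusted p = 0.00294). A further Grik2 circle, circ_2267, had 9, 5 and 10 reads in C2S, 9, 7 and 5 in OM and none in PM, which makes it at least 2.25-fold higher in C2S and at least 1.73-fold higher in OM. It was called with a log2 fold change of 2.03 ± 0.41 (SE) in OM against PM (limma adjusted p = 0.0213) and 2.31 ± 0.41 in C2S against PM (limma adjusted p = 0.00812). The first call was lost without PM replicate 2, OM replicate 1 or OM replicate 2 (adjusted p = 0.0606 to 0.125), and the second without C2S replicate 1 or C2S replicate 3 (adjusted p = 0.0556 to 0.0609). As circ_2267 entered the test only through the groups where it was high, its p-values are not independent of the filter. Its fitted change depends on the added 111.7 RPM and ran from 1.35 to 2.84 in OM against PM over the settings run. Of the 11 Grik2 members, 9 were not listed in PM.

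Dtnb circ_2669 had 48, 60 and 47 reads in C2S (2934 ± 360 RPM), 67, 58 and 62 in OM (3139 ± 98.0 RPM) and 21, 22 and 19 in PM (1407 ± 198 RPM; SD, n = 3), with no overlap of C2S or OM with PM. Its log2 fold change was 1.11 ± 0.15 (SE) in OM against PM (limma adjusted p = 0.00155) and 1.01 ± 0.15 in C2S against PM (limma adjusted p = 0.00292). Crebrf circ_177 was called in C2S against PM, with 40, 47 and 43 reads in C2S and 22, 24 and 23 in PM. Its log2 fold change there was 0.62 ± 0.14 (SE; limma adjusted p = 0.0434). This call was lost on leaving out any of the 9 libraries (adjusted p = 0.0556 to 0.157), with a replicate block (adjusted p = 0.0761) and without the filter on low values (adjusted p = 0.0508). In OM it had 48, 45 and 47 reads, and OM against PM gave a log2 fold change of 0.56 ± 0.14 that did not pass (limma adjusted p = 0.0735).

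**Figure D3:**
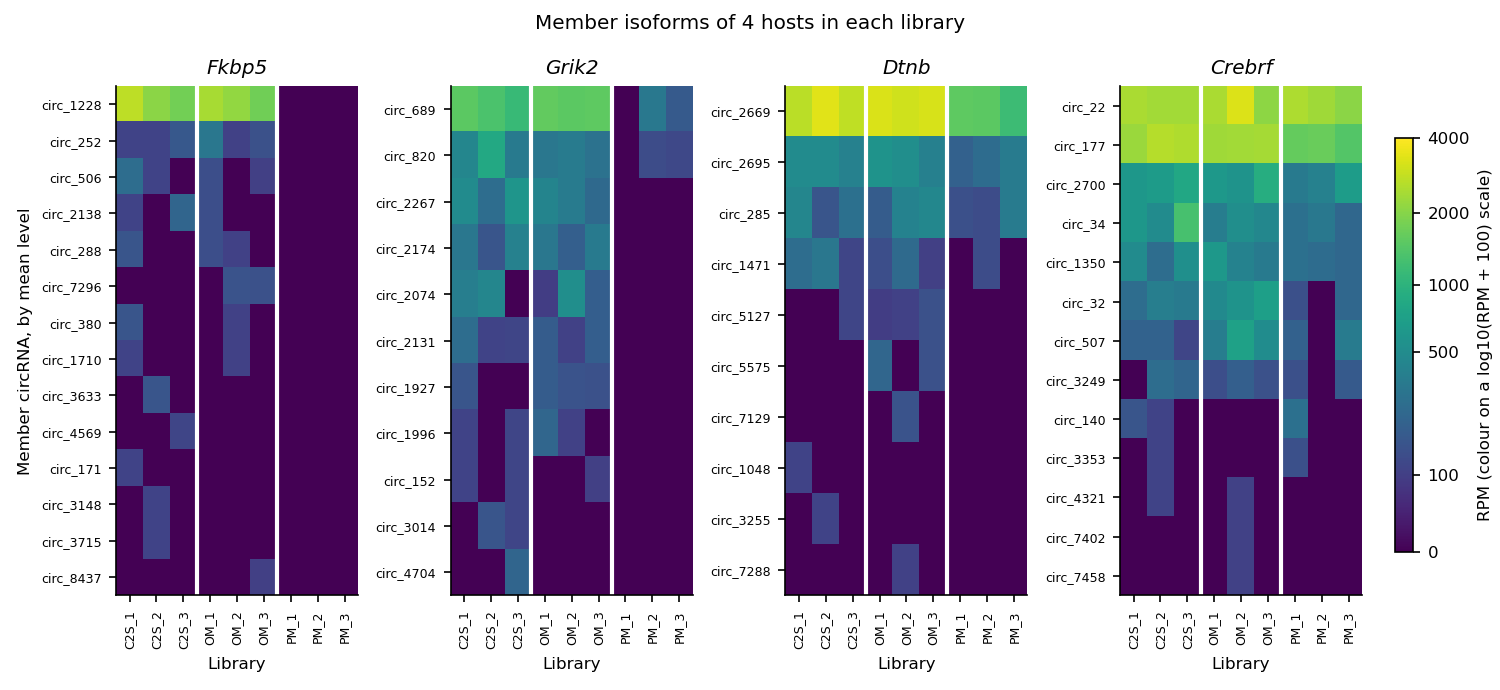
Level of each member circRNA (y axis) of 4 hosts in each library (x axis, C2S, OM and PM from left to right), in RPM on a logarithmic colour scale. Fkbp5 is blank in PM, Grik2 has 2 members with values there, and the leading circles of Dtnb and Crebrf are present in all 9 libraries.

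Across all members, 154 were listed in each of the 3 groups, 41 in C2S only, 52 in OM only and 38 in PM only. There were 144 members not listed in PM, of which 5 had a value in all 6 C2S and OM libraries: Fkbp5 circ_1228 and circ_252, and Grik2 circ_2267, circ_2174 and circ_2131. No member was listed in the 3 PM libraries and in none of the other 6. A library listed 170 to 176 members in C2S, 183 to 193 in OM and 144 to 156 in PM, which follows the order of circRNA reads per group. Of all 6614 circRNAs, a library listed 2361 to 2456 in C2S, 2615 to 2808 in OM and 1974 to 2277 in PM, in the same order. The shares of all circRNAs listed in 1 group only or not in PM were not computed. Whether these counts are particular to the members therefore cannot be said. The part of depth in these counts was not tested. Members took 8.23% to 8.34% of circRNA reads in C2S, 8.52% to 8.57% in OM and 7.93% to 8.34% in PM. Counting the circles of 1 group alone, 15 of the 36 hosts reached 10 exonic circRNAs in C2S, 21 in OM and 11 in PM.

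Summed over all exonic circles of a host, which gives more reads than a single isoform, more hosts passed the test. In OM against PM limma called 10 of 36 hotspot hosts (27.8%), 6 higher and 4 lower in OM, beside 3.41% of all 1730 hosts tested (1.91% higher and 1.5% lower). In C2S against PM it called 13 of 36 (36.1%), the same 10 and 3 further hosts that were lower in C2S, beside 3.87% of all tested (1.73% higher and 2.14% lower). In C2S against OM it called 0 of 36 (0% of 1730), with 1 of the 36 at an unadjusted p under 0.05. The hotspot hosts held a median of 302 reads over the 9 libraries, against 25 for the other 1694 tested hosts. Among the 328 hosts whose mean sum was at least 5 times 111.7 RPM, 13.4% were called in OM against PM and 15.9% in C2S against PM, beside 29.4% and 38.2% of the 34 hotspot hosts among them. The rule counts circles listed in any library, so a host can qualify through the groups where it is high. Fkbp5, Grik2, Dtnb and Ptprk reached 10 exonic circRNAs in C2S and in OM but not in PM, and Crim1 only in PM. Crebrf, Fer and Zfp827 reached 10 in each group. The shares of hotspot hosts called, here and below, are thus not independent of the rule. The part of depth in these shares was not tested.

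Among the hosts that rose, Fkbp5 summed to 3910, 2676 and 2303 RPM in C2S, 3178, 2824 and 2395 RPM in OM and 0 RPM in each PM library. No lowest fold is given for this sum. Each of its 15 circles could hold 1 unlisted read in a PM library, so the limit of 3 reads does not bound it. Grik2 summed to 6758, 6803 and 6023 RPM in C2S, 6307, 6275 and 6012 RPM in OM and 438, 959 and 620 RPM in PM. The circle above the span limit (54621 bases) averaged 1816 RPM in C2S, 1831 RPM in OM and 212 RPM in PM. The C2S and OM libraries of Grik2 overlapped each other and stood far above PM, with a log2 fold change of 3.06 ± 0.16 (SE) in OM against PM (limma adjusted p = 2.1e-18) and 3.13 ± 0.16 in C2S against PM (limma adjusted p = 9.12e-19).

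Thsd7a summed to 2066, 1115 and 1594 RPM in C2S, 1782, 1150 and 2089 RPM in OM and 219, 206 and 186 RPM in PM. Dtnb summed to 4915, 6301 and 5078 RPM in C2S, 5296, 5386 and 5758 RPM in OM and 2191, 2399 and 2171 RPM in PM. In both genes the OM and C2S libraries overlapped and none reached down to PM. The log2 fold changes of Thsd7a were 2.46 ± 0.30 in OM against PM and 2.40 ± 0.30 in C2S against PM, and those of Dtnb 1.24 ± 0.12 and 1.22 ± 0.12 (SE), with limma adjusted p between 2.69e-10 and 1.65e-07 for these 4 values.

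Ptprk summed to 1229, 2175 and 886 RPM in C2S, 1493, 2615 and 1478 RPM in OM and 511, 480 and 744 RPM in PM. Crebrf summed to 7093, 7639 and 8266 RPM in C2S, 7415, 8994 and 7592 RPM in OM and 5989, 5003 and 5458 RPM in PM. Both genes were lowest in the 3 PM libraries, without overlap. The log2 fold change of Ptprk was 1.49 ± 0.28 (SE) in OM against PM (limma adjusted p = 0.000381) and 1.09 ± 0.28 in C2S against PM (limma adjusted p = 0.0143). The call of Ptprk in C2S against PM was lost without C2S replicate 1 (0.0681) or C2S replicate 2 (0.233). For Crebrf the log2 fold change was 0.53 ± 0.09 in OM against PM and 0.48 ± 0.09 in C2S against PM (limma adjusted p = 7.73e-05 and 0.000448).

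Most of the falls depended on the total to which circRNA reads were scaled. Scaling circRNA reads to the linear reads of the library instead of to the circRNA reads raised the median log2 fold change of all circRNAs by 0.15 in OM against PM and by 0.10 in C2S against PM. The 6 rises were called under both scalings. Crim1 summed to 2569, 3011 and 3366 RPM in C2S, 3226, 3347 and 2904 RPM in OM and 4748, 5140 and 4714 RPM in PM, with C2S and OM below PM in every library. Its log2 fold change was −0.61 ± 0.13 (SE) in OM against PM (limma adjusted p = 0.0014) and −0.69 ± 0.13 in C2S against PM (limma adjusted p = 0.000307). Scaled to linear reads these calls were lost (adjusted p = 0.454 and 0.22) with the direction kept.

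Fer summed to 670, 1171 and 650 RPM in C2S, 1204, 1412 and 611 RPM in OM and 1607, 2330 and 2853 RPM in PM, again without overlap with PM. The fall in C2S against PM, by 1.34 ± 0.27 (SE) on the log2 scale (limma adjusted p = 0.00101), kept its call under all alternatives run. The fall in OM against PM, by 1.03 ± 0.27 (limma adjusted p = 0.0171), was lost scaled to linear reads (0.194) and without PM, OM or C2S replicate 3 (adjusted p = 0.0538 to 0.249). Tulp4 had the most circRNA of the 36 hosts, with 10779, 11096 and 10983 RPM in C2S, 9919, 10668 and 10038 RPM in OM and 12198, 14118 and 12591 RPM in PM. It was lower in OM by 0.34 ± 0.06 on the log2 scale (limma adjusted p = 0.000341) and in C2S by 0.24 ± 0.06 (limma adjusted p = 0.0194), and both calls were lost scaled to linear reads (0.964 and 0.955). The C2S call of Tulp4 was also lost without PM replicate 2 or any C2S replicate (adjusted p = 0.0524 to 0.191).

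Zfp827 averaged 4373 ± 329 RPM in C2S, 4419 ± 102 RPM in OM and 5771 ± 300 RPM in PM (SD, n = 3). Its falls by 0.38 ± 0.10 in OM and 0.39 ± 0.10 in C2S against PM on the log2 scale (SE; limma adjusted p = 0.0267 and 0.0187) were lost scaled to linear reads (0.907 and 0.711). The OM call was lost without PM replicate 2 or 3 or any OM replicate (0.0517 to 0.129) and the C2S call without PM replicate 3 or C2S replicate 2 or 3 (0.0729 to 0.103). Atrnl1 and Ltbp1 were called lower in C2S against PM and not in OM against PM, and C2S against OM called neither. Their C2S calls had limma adjusted p of 0.0415 for Atrnl1 and 0.0402 for Ltbp1. Both calls were lost scaled to linear reads (0.403 for Atrnl1 and 0.517 for Ltbp1), with the pseudocount halved (0.0546 and 0.0563), and without any C2S replicate or PM replicate 1. Atrnl1 was also lost without PM replicate 3, OM replicate 2 or OM replicate 3, and Ltbp1 without OM replicate 2, with adjusted p of 0.0507 to 0.286 over these hosts and libraries.

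**Figure D4:**
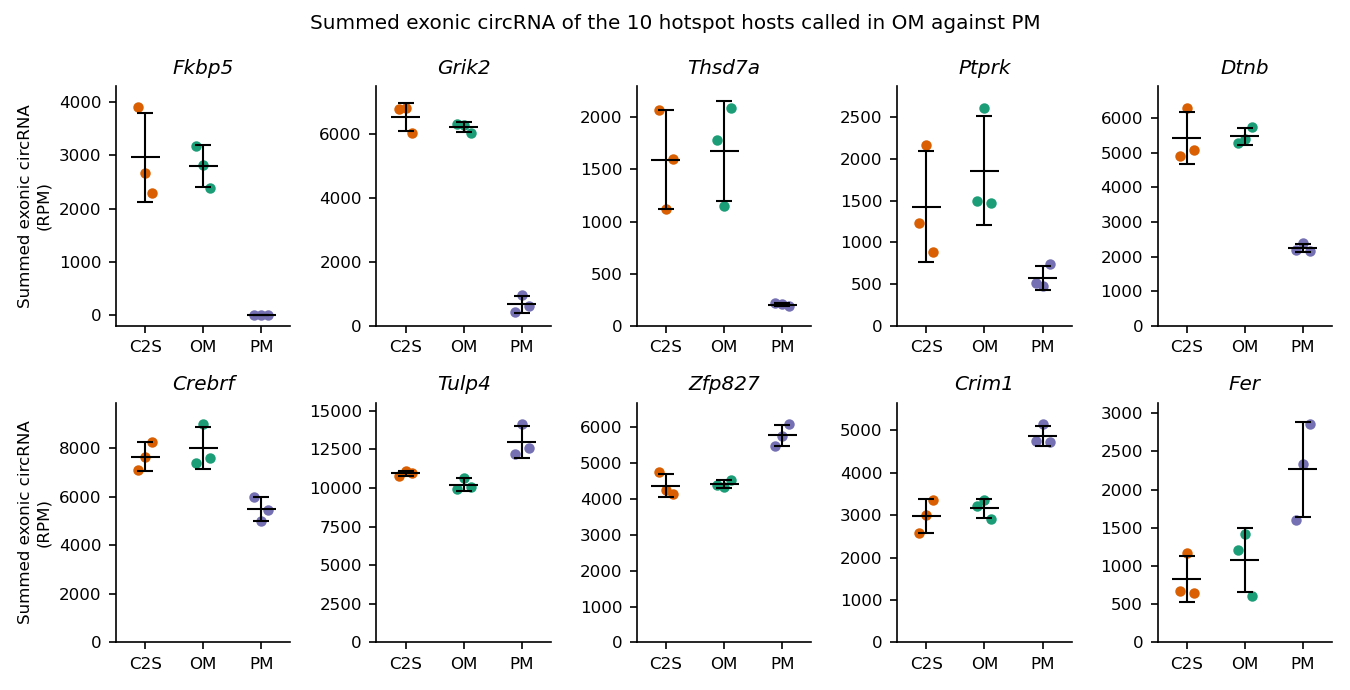
Summed exonic circRNA (y axis, RPM) of the 10 hosts called in OM against PM, for the 3 libraries each of C2S, OM and PM (x axis); points are libraries and black marks are the mean ± SD. C2S and OM lie above PM in the first 6 genes and below it in the last 4.

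No difference between C2S and OM in summed circRNA was called for any hotspot host, and the precision of that statement differed between hosts. The 95% interval of the log2 difference in summed circRNA had a half-width of 0.13 for Tulp4, the most abundant, a median of 0.39 and a maximum of 1.11. In 31 of 36 hosts the interval lay within −1 and 1, and in 16 within −0.5 and 0.5. The intervals of the 203 tested members were wider, with a median half-width of 1.02, and 48 of them lay within −1 and 1. A change of 2-fold in a typical single circle was therefore within the error of this comparison.

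Linear RNA of the same hosts was measured far more deeply. In OM against PM limma called 22 of 36 hosts (8 higher, 14 lower), beside 54.8% of all 13049 linear genes tested (27.1% higher and 27.7% lower). In C2S against PM it called 23 (8 higher, 15 lower), beside 56% of all tested (27.6% higher and 28.4% lower). In C2S against OM it called 7 (2 higher, 5 lower), beside 22% of all tested (10.6% higher and 11.5% lower). Those higher in OM included Fkbp5, Grik2, Thsd7a, Dtnb, Ptprk, Pik3c2a and Crebrf, among which are the 6 hosts whose summed circRNA rose. The 4 hosts whose summed circRNA fell in OM were also among the 14 whose linear RNA fell.

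In C2S against OM, Tulp4 linear RNA was 33.7, 38.2 and 36.3 FPKM in C2S and 29.3, 28.0 and 27.4 FPKM in OM, a log2 fold change of 0.34 ± 0.051 (SE; limma adjusted p = 0.00246). Dtnb linear RNA was 19.3, 19.6 and 19.1 FPKM in C2S and 22.5, 24.0 and 23.4 FPKM in OM, a fall by 0.26 ± 0.040 (SE; limma adjusted p = 0.00309). The libraries of the groups did not overlap in either gene. The calls of Ltbp1 (higher), Crim1, Trim24, Arhgap10 and Ppp1r12a (lower) had limma adjusted p of 0.0194 to 0.0461, and each was lost on leaving out C2S replicate 1 or 3. Ltbp1 was also lost without C2S replicate 2, Trim24 without OM replicate 2, Arhgap10 without OM replicate 2 or 3 and Ppp1r12a without PM replicate 1 or 2, any OM replicate or C2S replicate 2, with adjusted p of 0.0506 to 0.147 over these hosts and libraries.

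The circular and the linear change of a host were compared directly for the 34 hosts with enough circRNA. In OM against PM limma called 4 of 34 on the difference of the log2 changes, 3 higher and 1 lower, beside 5.79% of all 328 hosts tested (4.57% higher and 1.22% lower). In C2S against PM it called 6 of 34, 5 higher and 1 lower, beside 5.49% (3.66% higher and 1.83% lower). In C2S against OM it called 0 of 34 (0% of 328), with 3 at an unadjusted p under 0.05. The median difference of the 34 hosts was 0.12 in OM against PM (0.11 over all 328) and 0.07 in C2S against PM (0.03). This comparison was not run with circRNA reads scaled to linear reads, so its calls are given for 1 scaling only.

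Grik2 circRNA rose by more than its linear RNA. Its FPKM was 43.0, 43.2 and 44.3 in C2S, 48.4, 55.4 and 44.9 in OM and 14.8, 14.3 and 11.3 in PM. The circular change exceeded the linear one by 1.25 ± 0.18 (SE) on the log2 scale in OM against PM (limma adjusted p = 5.6e-06) and by 1.50 ± 0.18 in C2S against PM (limma adjusted p = 6.25e-08). No difference between the circular and the linear change of Fkbp5 was called. Its linear RNA averaged 207 ± 4.71 FPKM in C2S, 218 ± 7.57 FPKM in OM and 7.10 ± 0.289 FPKM in PM (SD, n = 3). The difference of its changes in OM against PM was −0.06 ± 0.30 (SE; limma adjusted p = 0.963), a value that depends on the added 111.7 RPM since its circles were at 0 in PM.

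Man2a1 and Rere lie outside the rule for named hosts and were chosen after their values were seen. Man2a1 circRNA summed to 3128, 2844 and 3720 RPM in C2S, 2744, 3242 and 3720 RPM in OM and 3652, 3221 and 3473 RPM in PM, which overlap. Its linear RNA was 51.2, 51.6 and 50.2 FPKM in C2S, 48.6, 54.1 and 45.3 FPKM in OM and 103, 100.2 and 87.3 FPKM in PM, where all 3 PM libraries were higher. The circular change exceeded the linear one by 0.86 ± 0.16 (SE) on the log2 scale in OM against PM (limma adjusted p = 0.0002) and by 0.81 ± 0.16 in C2S against PM (limma adjusted p = 0.000404).

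Crim1 linear RNA fell by 1.10 ± 0.077 in OM against PM and by 1.42 ± 0.077 in C2S against PM (SE, log2 scale; limma adjusted p = 3.29e-06 and 5.78e-07), and its circRNA fell by less. The excess of the circular over the linear change was 0.73 ± 0.15 in C2S against PM (limma adjusted p = 0.000404). In OM against PM it was 0.49 ± 0.15 (limma adjusted p = 0.0313), which was lost without PM replicate 1 or 2 or any OM replicate (0.0692 to 0.141). Rere circRNA summed to 1396, 2119 and 1535 RPM in C2S, 1878, 1883 and 1580 RPM in OM and 2191, 2741 and 2605 RPM in PM, while its linear RNA was 8.84, 12.3 and 9.95 FPKM in C2S, 9.55, 8.71 and 6.99 FPKM in OM and 9.26, 6.78 and 6.17 FPKM in PM. The C2S and OM sums of Rere lay below all PM sums, and its linear values overlapped. Rere moved in the opposite direction, with a circular change below the linear one by −1.002 ± 0.200 on the log2 scale in C2S against PM (SE; limma adjusted p = 0.000404). Its value in OM against PM, −0.64 ± 0.20 (limma adjusted p = 0.0447), was lost without any OM replicate, PM replicate 2 or 3 or C2S replicate 1 or 2 (0.0660 to 0.179). It was also lost with a lower floor on the summed level (0.0998).

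Trim24 and Chd2 were called in C2S against PM and not in OM against PM, and C2S against OM called neither. Trim24 circRNA averaged 4940 ± 265 RPM in C2S and 4037 ± 270 RPM in PM, and its linear RNA 34.2 ± 0.794 FPKM in C2S and 46.5 ± 3.30 FPKM in PM (SD, n = 3). The difference of its changes was 0.72 ± 0.13 (SE; limma adjusted p = 0.000329). Chd2 circRNA averaged 1516 ± 59.3 RPM in C2S and 940 ± 181 RPM in PM, and its linear RNA 15.5 ± 0.464 FPKM in C2S and 19.2 ± 2.43 FPKM in PM (SD, n = 3). For Chd2 the difference was 0.93 ± 0.25 (limma adjusted p = 0.0115), lost without PM replicate 2 or C2S replicate 1 or 2 (0.0522 to 0.0843).

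**Figure D5:**
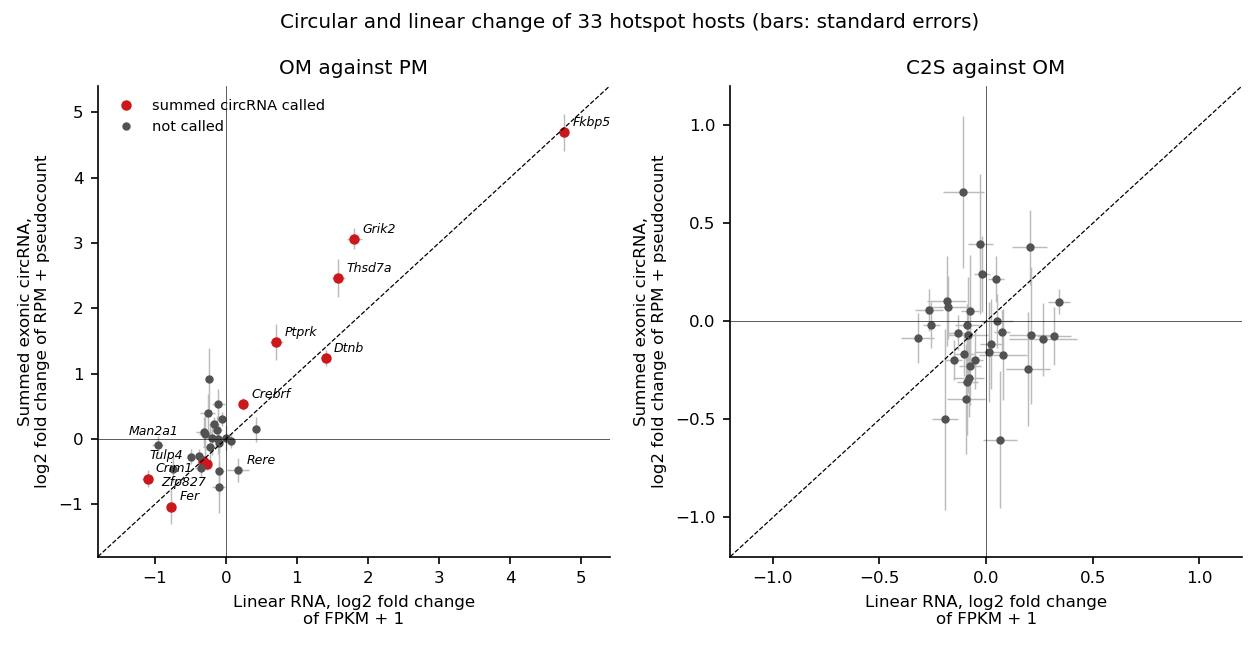
Log2 fold change of summed exonic circRNA (y axis, RPM plus the pseudocount of 111.7) against that of linear RNA (x axis, FPKM + 1) for 33 hosts, OM against PM on the left and C2S against OM on the right; bars are standard errors, red points are hosts called on summed circRNA and the dashed line marks equal change. Fkbp5 lies near the line, Grik2 above it, and no host was called in C2S against OM.

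Among 31 tested genes for circRNA biogenesis and decay factors, a list of proteins known to promote, limit, export or degrade circles, 4 rose and 12 fell in OM against PM, 4 rose and 1 fell in C2S against OM, and 7 rose and 9 fell in C2S against PM. Over all linear genes 54.8%, 22% and 56% were called in these comparisons, so the list was not called more often than the rest. The median log2 fold change of the list was −0.13, 0.05 and −0.04 in that order of comparisons, against 0.00, −0.01 and 0.00 over all linear genes. Quaking, Qk, which promotes circle formation in epithelial to mesenchymal transition, averaged 38.1 ± 0.961 FPKM in C2S, 36.8 ± 2.54 FPKM in OM and 51.2 ± 4.40 FPKM in PM (SD, n = 3). The RNA-editing enzyme gene Adarb1 averaged 25.1 ± 0.248 FPKM in C2S, 28.7 ± 2.32 FPKM in OM and 13.9 ± 0.961 FPKM in PM. The helicase gene Dhx9, whose product limits circle formation, averaged 32.2 ± 3.56 FPKM in C2S, 23.3 ± 2.45 FPKM in OM and 28.7 ± 2.60 FPKM in PM. These 3 genes were chosen after their values were seen, and their part in the changes of the members was not tested.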

How the data were processed

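Total RNA of 9 libraries in 3 groups was used, with groups taken from the labels. Per the submitters' processing notes, the build was mm10 and the tools include RSEM, STAR and HTSeq, without roles. The circRNA tables deposited by the authors hold RPM, taken as scaled to all circRNA reads: divided by a library's unit value, every entry was whole to within 0.001 reads, and none was below 2 reads; a dash was set to 0 and can stand for 0 or 1 read. The linear tables deposited by the authors hold FPKM, for which 98.2% to 98.5% of low values fell on whole reads within 0.1 reads. Whether counting used strand is not given in these sources, and antisense and overlapping genes cannot be told apart. Host symbols came from a gene name table (36 of 36 matched) and exons from GENCODE M21.

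Some hosts are counted but not reported here by name. Members, lists and the named hosts were chosen with earlier results of these data known. Named hosts were the 15 with the most members and those called on summed circRNA; named circles were their dominant members and all called members. A count test was planned; as the files hold scaled values, limma 3.58.1 (R 4.3.3) was used on log2(RPM + 111.7), where 111.7 RPM is the middle of the 9 libraries' lowest listed values, for circRNAs listed in at least 3 libraries, on host sums, and on log2(FPKM + 1) for linear genes that reached 1 FPKM in 3 or more libraries. All 9 libraries entered 1 fit by group, with limma's trend option and 6 residual degrees of freedom, and Benjamini-Hochberg adjustment ran over each whole table per comparison. The spread of each feature was drawn toward that of the others, with 7.83 prior degrees of freedom for circRNAs, 33.8 for host sums and 2.97 for linear genes. The p-values of host sums thus rest mostly on the spread pooled over hosts. The added constants make fold changes of low features too small. Circular minus linear was tested where the mean sum was at least 5 times 111.7 RPM, and isoform usage with limma's diffSplice in hosts with at least 2 tested circles. The scripts were tested on simulated data. Counting limits (3 reads) cover counting error only. Same-numbered libraries were checked for pairing: correlations of their deviations ran from −0.02 to 0.03 for circRNAs and from −0.09 to 0.40 for linear genes. The linear values thus do not settle whether same-numbered libraries share a culture or day. The numbers were not taken as pairs because nothing in the labels says that they do, and fits with the number as a block are given below.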

Additional observations from a re-analysis of the deposited data

Results flagged for a closer look

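Circles of the intron type, which the comparisons do not use, were listed for 12 of the 36 hosts (18 circles), and those of Pik3c2a and Grik2 were above the level in the PM libraries, where none was listed. The intron-type circle of Pik3c2a averaged 93 RPM in C2S (listed in 2 libraries) and 101 RPM in OM (listed in 3). The intron-type circles of Grik2 averaged 119 RPM in OM (listed in 2 libraries). All 3 values lie below the limit of 3 reads per library in PM (204 RPM), and no test was run on them.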

How the results depend on the processing

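Depth limits single circles most: a listed circle had a median of 3 reads, and PM had the fewest. Of 96 single results that were called, 66 kept their call in every alternative run, 30 lost it at least once and none changed direction. In OM against PM the count of called members was 4, and it was 7 without the filter on low values, 8 for circles listed in at least 6 libraries and 7 scaled to linear reads. The count of hosts called on summed circRNA in C2S against PM was 13 and, scaled to linear reads, 7. Hosts called on linear RNA in C2S against OM numbered 7, and 3 without the filter; those on circular minus linear in OM against PM numbered 4, and 2 with a lower floor. Usage calls at 6 libraries were 2 in OM against PM and 3 in C2S against PM. The cause of these moves was not tested, but the filters change how many features are tested. Leaving out 1 library at a time gave 3 to 5 members in OM against PM and 3 to 4 in C2S against PM, 8 to 11 and 8 to 14 hosts on summed circRNA, 19 to 29 and 18 to 27 on linear RNA (2 to 9 in C2S against OM), 2 to 7 and 5 to 8 on circular minus linear, 1 and 1 on usage, and 0 in C2S against OM for members, sums, circular minus linear and usage. A smaller linear pseudocount for circular minus linear was added after seeing the data.

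With the replicate number as a block, the pairing of same-numbered libraries left the count of called members at 4 in OM against PM and 0 in C2S against OM and moved it to 4 in C2S against PM, where it was 5 without the block, left summed circRNA at 10, 0 and 13 hosts, circular minus linear at 4, 0 and 6 and usage at 1, 0 and 1, and gave 25, 7 and 27 hosts on linear RNA. The best-matching library of another group had the same number in 9 of 18 cases for circRNAs and 13 of 18 for linear genes. The count tests planned as alternatives were not run.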
